A study of Mus musculus with 6 samples.

Results

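The 10 genes described here, Gfra1, Zbtb16, Nanos3, Sall4, Lin28a, Kit, Stra8, Sohlh1, Dmrt1 and Uchl1, mark or drive the passage from spermatogonial stem cell to differentiating spermatogonium in the mouse testis. They were taken as a named set, 10 of the 32285 genes counted, and their unique molecular identifiers (UMIs, each standing for 1 captured mRNA molecule) were read within single barcodes, the droplets that stand for cells. Gfra1, Zbtb16 and Nanos3 stood for a stem-like state and Kit and Stra8 for a differentiating state.

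Spermatogonial stem cells sit on the basement membrane of the seminiferous tubule and renew under GDNF, a ligand of Sertoli and peritubular cells that is read through GFRA1 and the RET kinase. A pulse of retinoic acid commits their progeny to differentiation, when the receptor kinase KIT appears, and a later pulse starts meiosis, when STRA8 acts as a transcription factor together with MEIOSIN. ZBTB16 (also called PLZF) and SALL4 are zinc finger factors of undifferentiated spermatogonia, NANOS3 and LIN28A are RNA-binding proteins, SOHLH1 is a basic helix-loop-helix factor of differentiation, DMRT1 is a DM-domain factor that restrains premature meiosis, and UCHL1 is a ubiquitin hydrolase abundant in spermatogonia.

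Wild-type C57BL/6 males (C57BL/6N in the study's methods), 8 weeks old, had been fed either fat-rich (HFD) or fat-poor (LFD) purified diet for 2 weeks, and the testes of 3 mice per diet gave 1 droplet library each, read from the 3-prime end of mRNA. The names of the deposited matrices give the opposite diet for all 6 libraries, and the study's barcode number for each library goes with those names, so the groups are called here the libraries labelled HFD and LFD. Should the file names be right, all diet differences reported here turn their sign, with p-values and counts of calls as they are.

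The 6 libraries held 48939 barcodes and between 39196921 and 95845514 UMIs each. The libraries of replicate 1 stood apart from the other 4 under both labels: haemoglobin transcripts were at 0.0209 and 0 CPM (UMIs scaled so that every library or class sums to the same total) against 30.5 to 99.7, elongating spermatid-like barcodes made up 12% and 10.9% against 1.30% to 3.78%, and Sertoli-like barcodes 2.63% and 4.39% against 0.320% to 0.869%. Libraries shared 12 to 28 barcode sequences per pair, 284 barcodes in all. The members' diet differences are therefore also given within replicate 1 and within the other 4 libraries.

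In the genome assembly mm10 (GRCm38) all 10 are protein-coding genes. Gfra1 lies at chr19:58235604-58455909 (minus strand) and Dmrt1 on the same chromosome at chr19:25505618-25604329 (plus). Kit at chr5:75574916-75656722 and Uchl1 at chr5:66676091-66687234 (both plus) share chromosome 5, and Sohlh1 at chr2:25842995-25847248 and Sall4 at chr2:168748332-168767943 (both minus) share chromosome 2. Zbtb16 lies at chr9:48654297-48836222, Nanos3 at chr8:84173731-84185217 and Lin28a at chr4:134003330-134018841, all on the minus strand, and Stra8 at chr6:34920163-34939344 on the plus strand. Antisense genes overlap Gfra1, Sall4, Lin28a and Uchl1. No exon of another gene on the same strand overlapped the exons of a member.

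The start sites of Stra8 and Sohlh1 are shown because these genes carry letters known from the retinoic acid and helix-loop-helix literature. AGGTCA is the half-site read by nuclear receptors such as the retinoic acid receptors, and CACGTG is an E-box read by basic helix-loop-helix factors. Sequences come from RefSeq on GRCm38.p6 and are written 5′ to 3′ on the strand of the gene, with both motifs in capitals. The first is the stretch of 250 bases before the start of Sohlh1 (chr2:25847249-25847498, minus strand), and the other pair are 30-base windows around the AGGTCA letters of Stra8 (chr6:34920742-34920771 and chr6:34920898-34920927, plus strand).
Sohlh1 upstream: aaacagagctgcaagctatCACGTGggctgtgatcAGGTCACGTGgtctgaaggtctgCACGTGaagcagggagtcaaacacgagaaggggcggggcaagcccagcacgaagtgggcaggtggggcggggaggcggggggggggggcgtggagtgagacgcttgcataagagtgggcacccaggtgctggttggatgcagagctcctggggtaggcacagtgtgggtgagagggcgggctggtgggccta
Stra8 distal: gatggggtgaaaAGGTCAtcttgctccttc
Stra8 proximal: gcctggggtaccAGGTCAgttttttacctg
The Sohlh1 stretch held CACGTG at 3 places and AGGTCA at 1, the latter sharing its last letters with an E-box. Of 32851 such stretches of 250 bases over the genome, searched on both strands, 6.02% held CACGTG and 20 of them (0.0609%) held it at 3 or more places. In Stra8 the AGGTCA letters stood 194 and 38 bases before the start, within an exon of a longer Stra8 transcript, and 14.0% of all stretches held AGGTCA, with 446 (1.36%) holding it at least at 2 places. Neither motif was in the stretches of Gfra1, Nanos3, Lin28a, Kit or Uchl1. A match is a description of the letters and not of binding, and 7 of the 10 genes had an entry.

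Most UMIs of the set came from a single class of germ cells. Clusters were made without the 10 genes, and 1844 barcodes (3.77%) carried markers of spermatogonia and early spermatocytes, between 159 and 446 per library, with a median of 7593 UMIs. This class held 90.7% of all Sall4 UMIs, 90.4% of Stra8, 77.5% of Dmrt1, 67.9% of Lin28a, 65.2% of Zbtb16, 64.5% of Sohlh1, 58.9% of Kit and 58.5% of Uchl1. The exceptions were the sparse Nanos3 and Gfra1, with 29.0% and 15.2%. Fewer cells of a type and less RNA per cell cannot be told apart in a sum over a whole library.

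Levels in the class, in CPM, ranged widely between libraries. Gfra1 was at 7.02 over all class barcodes, with libraries from 0.876 to 11.7 and detection in 3.20% of barcodes. Zbtb16 was at 36.2 (libraries 19.3 to 48.4, detected in 14.3%), and Nanos3 at 13.5 (6.16 to 25, 6.34%). The lowest Gfra1 level, in HFD 3, rested on 2 UMIs. Sall4 was at 41.4 (25 to 76.4, 16.6%), and Lin28a at 16.2 (7.88 to 25, 8.46%). Kit was at 86.7 (65.7 to 107, 33.9%), and Stra8 at 397 (334 to 553, 50.4%). The pair of differentiation genes was thus detected in more barcodes than the stem-like genes, with a narrower range between libraries. Sohlh1 was at 72.0 (29.8 to 111, 30.4%), Dmrt1 at 133 (107 to 155, 44.9%) and Uchl1 at 519 (274 to 704, 59.9%).

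Outside the class Uchl1 reached 251 CPM in Sertoli-like barcodes, with libraries from 118 to 425, beside 14.5 in elongating spermatid-like barcodes, and Dmrt1, which Sertoli cells are known to express, reached 18.8 there (8.29 to 27.4). Zbtb16 was at 15.0 CPM in interstitial-like barcodes, highest at 30.5 in a sub-cluster of 117 barcodes with peritubular markers. Sohlh1 was at 20.9 CPM in cluster 8, an unnamed cluster, in 5.36% of its barcodes, and Kit at 10.4 there. Kit was also at 41.0 CPM (95% Poisson interval 19.7 to 75.5) in 34 interstitial-like barcodes with Leydig markers, from 10 UMIs in 4 barcodes. In pachytene spermatocyte-like barcodes, at a median of 43502 UMIs, Uchl1 was detected in 54.0% but stood at 20.8 CPM. Gfra1 lay between 0.385 and 2.76 CPM in every class outside. As a background for detection, elongating spermatid-like barcodes, with a median of 10537 UMIs, showed Gfra1 in 2.00%, Nanos3 in 2.65%, Kit in 2.11%, Stra8 in 0.618%, Zbtb16 in 0.763% and Sohlh1 in 2.98%. The class detection share of Gfra1 over all its barcodes was thus little above that in a cell type not known for it, whereas Kit, Stra8, Zbtb16 and Sohlh1 were well above. In deeper classes Gfra1 exceeded its class share, with 4.97% of late spermatocyte- to early round spermatid-like barcodes and 4.45% of pachytene spermatocyte-like ones. Nanos3 was in 5.77% of the former, beside 6.34% in the class.

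Among the partners of these genes, Kitl, the KIT ligand, was highest in Sertoli-like barcodes at 43.7 CPM and at 0.236 CPM in the class. Gdnf reached 5.01 CPM in interstitial-like barcodes. Cyp26b1, which degrades retinoic acid, was at 542 CPM in interstitial-like barcodes, and Csf1 reached 37.8 CPM there, while Crabp1, a cellular retinoic acid-binding protein, was highest in the class at 149 CPM.

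Within the class the genes occupied different sub-clusters (plot of levels over sub-clusters). The sub-clusters were ordered by their summed early meiotic genes, which is no measure of time, and their levels are a description because the barcodes were clustered on the same cells. Sub-cluster 6, with 127 barcodes, had the highest level of 11 of the 12 undifferentiated spermatogonia markers, among them Id4, Etv5, Ret and Eomes, and was called undifferentiated spermatogonia-like. Sub-cluster 7, with 109 barcodes, had the highest Dnmt3b, Sohlh2 and Crabp1. The other listed markers of differentiating spermatogonia, Ccnd2, Rhox13, Elavl2, Prss50, Dmrtb1 and Insl6, were highest in other sub-clusters. It also had the highest Pou3f1, an undifferentiated marker, and the highest Wt1 and Aard, which are Sertoli markers. HFD 1 gave 46 of its barcodes and LFD 1 gave 37. Markers of the preleptotene to zygotene stages were highest in sub-clusters 0 (Rec8), 4, 3 and 1. Sub-cluster 5, of 184 barcodes, had a median of 1954 UMIs and spermatid transcripts and is not plotted.

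**Figure D1:**
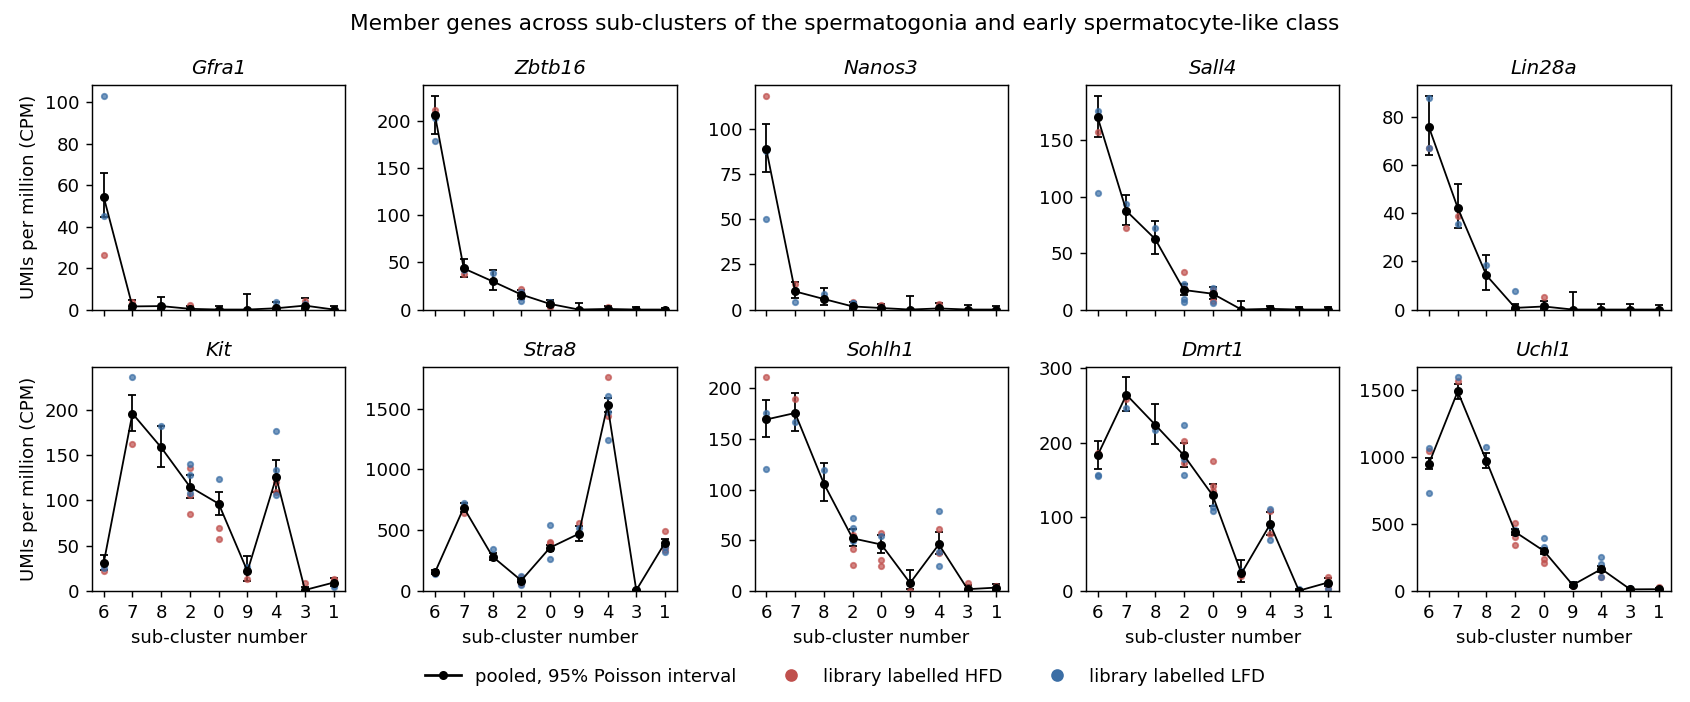
Level of each of the 10 genes (vertical axis, CPM) in the sub-clusters of the class, ordered from left to right by summed early meiotic genes. Black points with lines are pooled levels with 95% Poisson intervals that cover counting error only, and coloured points are single libraries with at least 20 barcodes. Gfra1, Zbtb16 and Nanos3 are highest at the left in sub-cluster 6, Kit is highest in sub-cluster 7, and Stra8 has a first high level in sub-cluster 7 and a second, higher one in sub-cluster 4.

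Gfra1 was nearly restricted to sub-cluster 6, with 54.5 CPM (95% Poisson interval 44.7 to 65.7), against at most 1.91 in the other sub-clusters plotted, and was detected in 38.6% of its barcodes. The 3 libraries with enough barcodes there stood at 26.5 (HFD 1), 45.3 (LFD 1) and 103 (LFD 2). Zbtb16 was at 206 CPM there, 43.7 in sub-cluster 7, 30.01 in sub-cluster 8 and 15.9 in sub-cluster 2, and Nanos3 at 88.7, 10.0, 5.84 and 1.73 in the same order. These 3 genes were thus at their highest in the same 127 barcodes, with Zbtb16 reaching further into the following sub-clusters. Sall4 followed Zbtb16, at 170, 87.4, 62.5 and 17.3 CPM. Lin28a was at 75.6, 42.2, 14.2 and 0.693 CPM.

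Kit had the opposite start. It was at 30.8 CPM (23.5 to 39.5) in sub-cluster 6 and 196 (177 to 216) in sub-cluster 7, then at 158, 115 and 96.4 in sub-clusters 8, 2 and 0. It was 126 (109 to 144) in sub-cluster 4, and 1.27 and 9.48 in sub-clusters 3 and 1. KIT is known to be lost as spermatocytes enter meiosis, and these last sub-clusters held the highest Spo11, Meiob and Dmc1.

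Stra8 had 2 separate high levels. It was at 686 CPM (650 to 723) in sub-cluster 7, 87.3 (76.9 to 98.8) in sub-cluster 2 and 1528 (1468 to 1590) in sub-cluster 4, which also had the highest Gm4969, the gene listed for Meiosin. The low level in sub-cluster 2 was seen in every library, from 53.2 to 124 CPM, and the high level in sub-cluster 4 in the 5 libraries with at least 20 barcodes there, from 1244 to 1758 CPM, so the libraries of both sub-clusters did not overlap. In sub-cluster 7 only HFD 1 and LFD 1, at 638 and 722 CPM, had enough barcodes. Sub-cluster 3 held 12 Stra8 UMIs, or 7.63 CPM (3.94 to 13.3), while sub-cluster 1 was at 398 (371 to 427).

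The other members fell along the order with less separation. Sohlh1 was at 169, 175 and 106 CPM in sub-clusters 6, 7 and 8 and 52.0 in sub-cluster 2. Dmrt1 was at 183, 265, 224 and 183 in the same order, 90.1 in sub-cluster 4 and 0.636 in sub-cluster 3. Uchl1 was at 950 CPM in sub-cluster 6 and 1487 in sub-cluster 7, and at 13.4 in sub-cluster 3. Dmrt1 and Uchl1 were thus highest in the sub-cluster of highest Kit, while the Sohlh1 intervals of sub-clusters 6 (151 to 188) and 7 (157 to 195) overlapped.

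Some barcodes carried several UMIs of Zbtb16, Stra8 or Kit. In sub-cluster 6, 111 of 127 barcodes held Zbtb16, with a mean of 3.68 UMIs each and at most 15. Stra8 was in 29 of these 127 barcodes, with a mean of 10.6 UMIs each, and 15 of them had at least 5. In sub-cluster 4, 202 of 206 barcodes held Stra8, at a mean of 12.2 UMIs. Kit was in 97 of the 109 barcodes of sub-cluster 7, at a mean of 4.02 UMIs. Single UMIs were common elsewhere and for the sparse genes. Zbtb16 was at 1 UMI in 37 of its 57 barcodes in sub-cluster 7 and in 38 of 42 in sub-cluster 2. In sub-cluster 6, Gfra1 was at 1 UMI in 21 of its 49 barcodes and Nanos3 in 32 of 76.

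Next, the barcodes of the class were sorted by the members themselves. The stem gate took barcodes with at least 1 UMI of Gfra1, Zbtb16 or Nanos3 and none of Kit and Stra8, the differentiating gate the reverse, and the double gate those with UMIs from both sides. The stem gate held 118 barcodes, the differentiating gate 953 and the double gate 184, and 589 barcodes had none of the 5 genes. Of the 1255 gated barcodes these were 9.40%, 75.9% and 14.7%. Depth differed between the gates, with median UMIs of 12663 in the stem gate, 7545 in the differentiating gate and 16304 in the double gate.

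The gates fell into the sub-clusters that the other genes had defined. In sub-cluster 6, 89 barcodes (70.1%) were in the stem gate and 33 (26.0%) in the double gate, with 1 in the differentiating gate. Sub-cluster 7 held 65 double gate barcodes (59.6%) and 42 of the differentiating gate. Sub-cluster 4 held 200 differentiating gate barcodes (97.1%). Sub-cluster 7 had the highest Kit and also the deepest barcodes, with a median of 17096 UMIs. Of double gate barcodes, 1.63% were marked as likely doublets, against 2.54% in the stem gate and 5.35% in the differentiating gate. The marks take the highest scores of each library at a preset rate. A low share therefore cannot show that a gate is free of doublets. After thinning each barcode to 2000 UMIs, 78 of 800 gated barcodes were in the stem gate, 701 in the differentiating gate and 21 in the double gate. Stem gate barcodes were not particular to the class, and made up 10.4% of late spermatocyte- to early round spermatid-like and 11.9% of round spermatid-like barcodes, against 6.40% in the class, at a far higher depth (medians of 33608 and 37283.5 UMIs). Pachytene spermatocyte-like barcodes (8.17%, median 43502 UMIs) and the unnamed cluster 13 (7.99%, 23575 UMIs) were also above the class. So were interstitial-like barcodes (7.03%), at a lower median than the class, of 3999 UMIs. The part of depth in these shares was not tested.

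**Figure D2:**
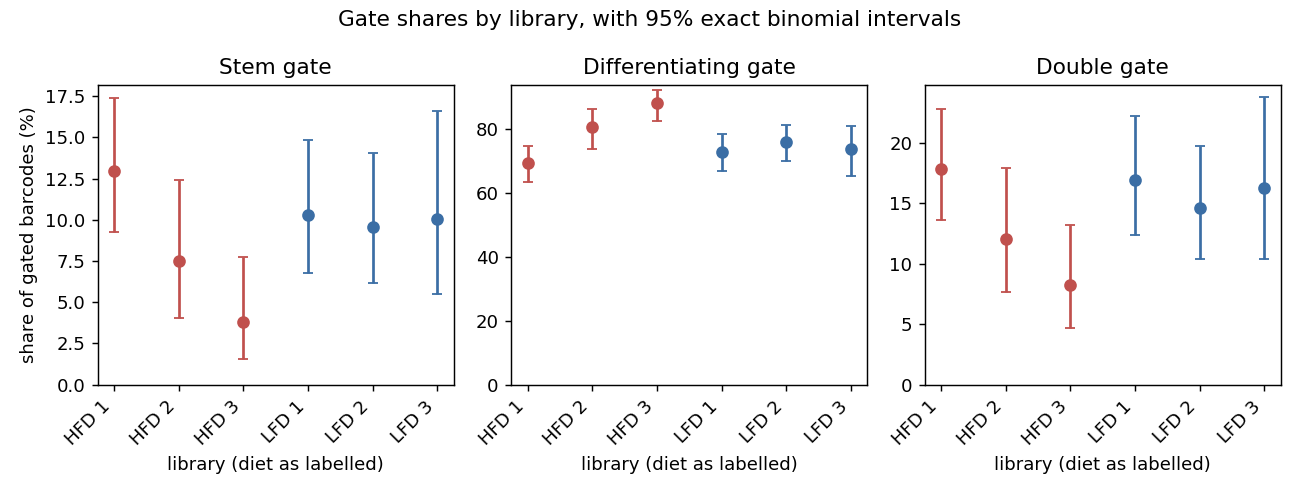
Percent of gated class barcodes in the stem, differentiating and double gates (vertical axes) in each of the 6 libraries, with 95% exact binomial intervals that cover counting error only. The stem gate share of the libraries labelled LFD lies between 9.58% and 10.3%, inside the range of the libraries labelled HFD, from 3.83% to 12.9%. The differentiating gate also holds early spermatocyte-like barcodes.

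Whether the balance of the gates moved with the diet label was asked over libraries. The differentiating gate also held early spermatocyte-like barcodes, 200 in sub-cluster 4 and 177 in sub-cluster 1. Sub-cluster 1 made up 31.8% and 22.5% of the class in HFD 2 and 3, against 9.42% to 12.7% in the other libraries. Sub-cluster 4 made up 20.6% in HFD 3 and 20.8% in LFD 3, against 6.90% to 9.19%. The part of such barcodes in the gate shares was not tested. The stem gate share was 12.9%, 7.47% and 3.83% in the libraries labelled HFD and 10.3%, 9.58% and 10.1% in those labelled LFD. The groups overlapped, with means of 8.08% ± 4.59 (SD, n = 3) and 9.98% ± 0.362 (SD, n = 3), a difference of -1.91 percentage points (exact permutation test, two-sided, p = 0.7, adjusted over the 3 gates 0.7). It was 2.65 within replicate 1 and -4.18 over the other 4 libraries, so its sign differed between them. The differentiating gate share was 69.2%, 80.5% and 88.0% against 72.8%, 75.8% and 73.6%, a difference of 5.12 (exact permutation p = 0.4, adjusted 0.6), with -3.61 within replicate 1 and 9.48 in the others. The double gate share was 17.8%, 12.1% and 8.20% against 16.9%, 14.6% and 16.3%, a difference of -3.21 (exact permutation p = 0.4, adjusted 0.6), with 0.960 and -5.30. The class itself made up 3.77% ± 0.654 and 3.84% ± 1.71 of barcodes (SD, n = 3 each), a difference of -0.0679 (exact permutation p = 1), with -1.32 within replicate 1 and 0.558 in the others. With 3 libraries against 3 the test cannot go below 0.1.

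Co-detection was then read pair by pair, in the same barcodes and partly the same genes as the gates, so it is no separate support for them. For each of the 45 pairs the class barcodes with both genes were set beside the number that the detection shares of each library alone would give. Of the pairs, 40 lay above 1 and 37 had a 95% Poisson interval wholly above it. The given number treats the class of a library as uniform. Its sub-clusters had medians from 1954 to 17096 UMIs, and sub-clusters 3 and 1 held 0 UMIs of Sall4 and Lin28a. The part of this mixture in the ratios was not tested. Gfra1 and Zbtb16 met in 48 barcodes where 8.87 would be given, a ratio of 5.41 (3.99 to 7.17). Zbtb16 and Nanos3 met in 86 against 18.1, a ratio of 4.75, and Gfra1 and Nanos3 in 23, a ratio of 5.55. The 3 pairs of stem-like genes thus all met in over 4 times the given number of barcodes. Nanos3 and Lin28a had the ratio 6.23 (70 barcodes against 11.2), and Sall4 and Lin28a 4.33 (119 against 27.5).

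Across the split the ratios were lower, and fell further once barcodes had equal depth. Gfra1 and Stra8 met in 16 barcodes against 29.6, a ratio of 0.540 (0.309 to 0.877), the only pair with its interval below 1. Gfra1 and Kit met in 14 against 21.4, a ratio of 0.655 (0.358 to 1.10), and in 0 against 9.17 after thinning to 5000 UMIs (upper bound of the ratio 0.402). Nanos3 and Stra8 had the ratio 0.770 (0.560 to 1.03), and 0.0993 (0.00251 to 0.553) at 2000 UMIs, from 1 barcode against 10.1. Nanos3 and Kit had the ratio 0.901 (0.634 to 1.24). Pairs of Gfra1 and Nanos3 with Stra8 were thus below the number given by detection alone. Zbtb16 and Kit met in 134 barcodes against 91.0, a ratio of 1.47 (1.23 to 1.74), which became 0.951 at 2000 UMIs and 0.780 (0.505 to 1.15) at 5000. Zbtb16 and Stra8 stood at 0.974, and at 0.498 (0.328 to 0.724) after thinning to 5000. Kit and Stra8 met in 418 barcodes against 315, a ratio of 1.33 (1.20 to 1.46), and of 1.29 (1.05 to 1.57) at 2000 UMIs.

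**Figure D3:**
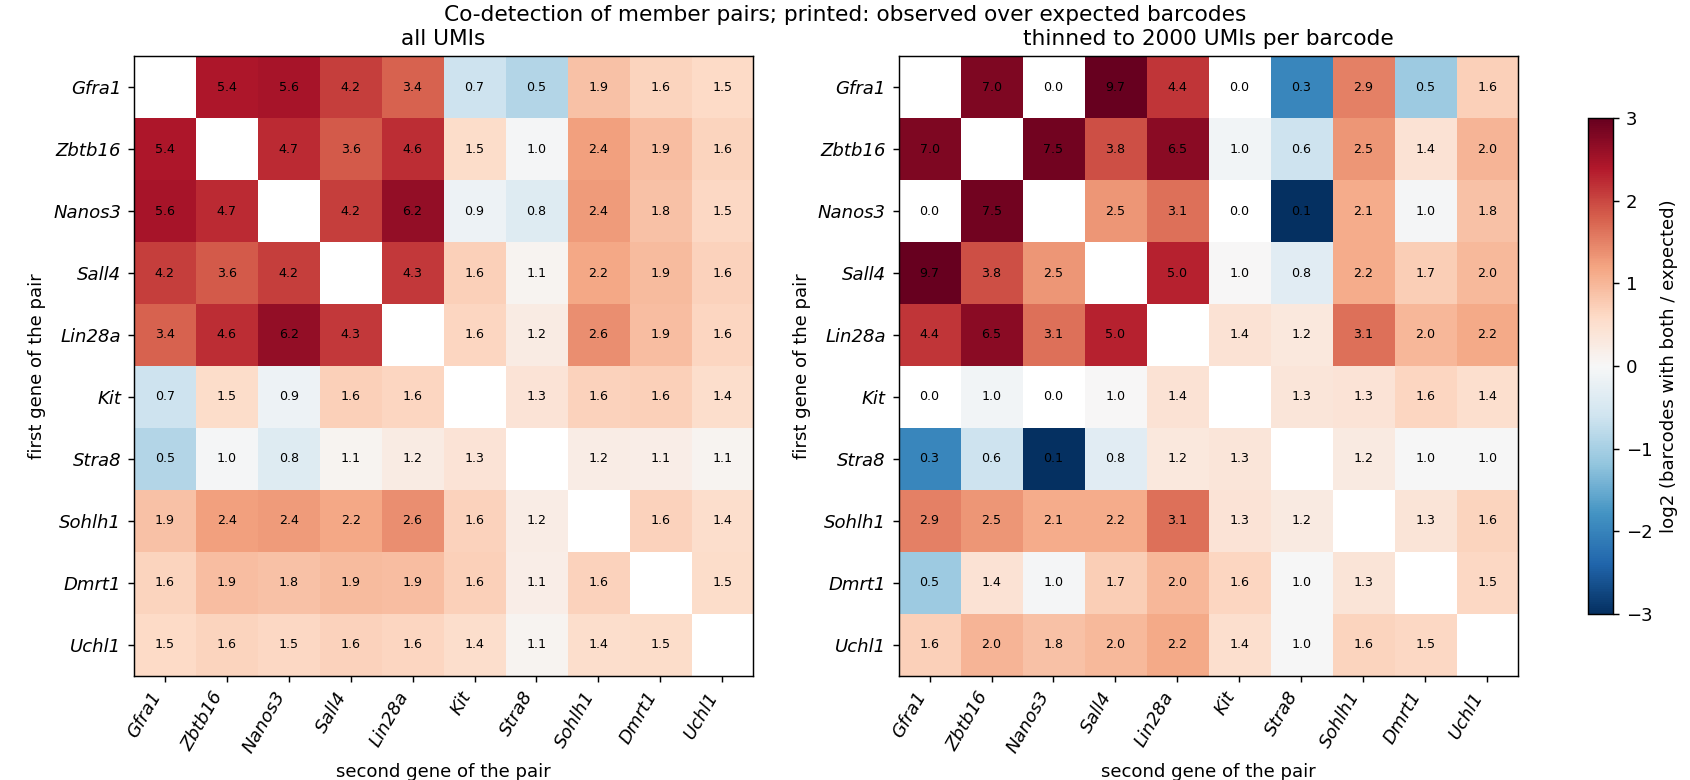
Ratio of class barcodes with both genes to the number given by detection alone (printed, with colour on a log2 scale) for the 45 pairs of the 10 genes, with all UMIs (left) and after thinning each barcode to 2000 UMIs (right, ratios of 0 left white). Pairs among Gfra1, Zbtb16, Nanos3, Sall4 and Lin28a are above 1, except that Gfra1 and Nanos3 met in no thinned barcode, and Gfra1 and Nanos3 are below 1 with Kit and Stra8 on both sides.

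The gates were then compared over all genes they did not use. UMIs were summed per gate and library in the 5 libraries with at least 10 barcodes in both gates (HFD 3 had 7 stem gate barcodes), and tested with edgeR's quasi-likelihood test with the library as a block and Benjamini-Hochberg adjustment. Of 9851 genes tested, 4134 (42%) passed an adjusted p under 0.05 (31.4% with DESeq2), 22.3% higher and 19.6% lower in the stem gate, with a median log2 change of -0.02. All 5 members outside the gates were higher in the stem gate. The stem gate was deeper, so the contrast was also run on barcodes of 6000 to 16000 UMIs, with at least 5 in place of 10 barcodes per gate. The stem gate stayed deeper in that window in every library entered, from 9907 against 8873 UMIs (medians, HFD 1) to 12512.5 against 8002 (LFD 3). Markers of elongating spermatids, another cell type, summed to 2922 to 9156 CPM in the stem gate and 4626 to 11655 in the differentiating gate of single libraries. The differentiating gate also held early spermatocyte-like barcodes. Preleptotene to zygotene markers summed to 888 to 2824 CPM in the stem gate and 3829 to 5720 in the differentiating gate per library. The part of either marker set in the differences was not tested.

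Lin28a differed most among the 5. Its level in the stem gate was 75.6 and 26.3 CPM in HFD 1 and 2 and 93.5, 61.0 and 114 in LFD 1 to 3, against 7.70, 2.04, 4.82, 5.50 and 1.25 in the differentiating gate. The gates did not overlap, and Lin28a differed by 4.01 ± 0.31 on the log2 scale (SE, adjusted p = 4.67e-17, edgeR) and by 4.38 in the depth window. Sall4 was at 108, 89.4, 152, 77.0 and 90.0 CPM against 20.1, 13.6, 24.1, 23.9 and 16.3, again without overlap, with a log2 change of 2.50 ± 0.21 (SE) and 2.85 in the depth window. Sohlh1 was at 135 ± 47.0 CPM against 55.8 ± 20.7 (SD, n = 5), a log2 change of 1.41 ± 0.16 (SE), and Uchl1 at 832 ± 235 against 415 ± 139 (SD, n = 5), with 1.14 ± 0.10 (SE), both higher in 5 of 5 libraries. SOHLH1 is known as a factor of differentiation. Its transcript was higher in the stem gate than in a gate that also held early spermatocyte-like barcodes. Over sub-clusters it was at 169 and 175 CPM in 6 and 7, above the later ones. Dmrt1 was at 163 ± 23.7 against 128 ± 10.7 CPM (SD, n = 5), higher in 4 of 5 libraries, with a difference of 0.46 ± 0.14 on the log2 scale (SE, adjusted p = 0.00482, edgeR). The Dmrt1 call was lost in the depth window (0.28, edgeR adjusted p = 0.229) and with no filter on low counts (0.31, adjusted p = 0.132).

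**Figure D4:**
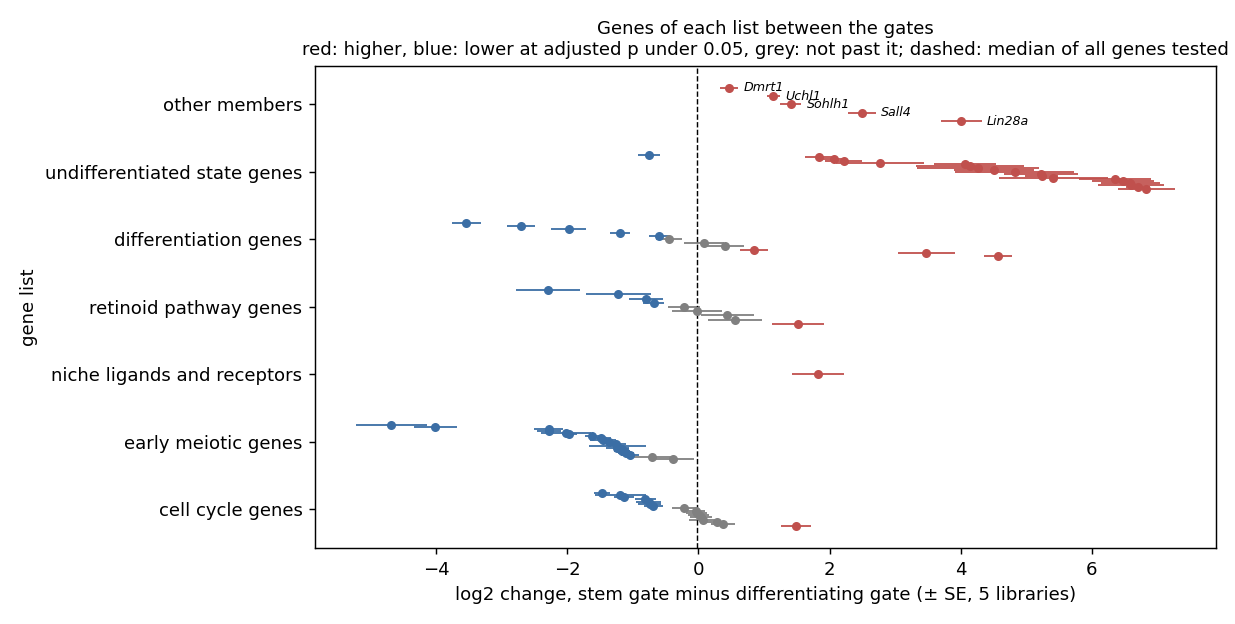
Log2 change between the stem and differentiating gates with its SE (horizontal axis) for the 5 other members and for the genes of each list (vertical axis), from the edgeR fit over 5 libraries. Red points are higher and blue points lower in the stem gate at an adjusted p under 0.05, and the dashed line is the median of all genes tested. The members run from 0.46 (Dmrt1) to 4.01 (Lin28a), and 18 of 19 undifferentiated state genes lie to the right.

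Genes known from undifferentiated spermatogonia were mostly higher in the stem gate. Of 22 listed, 19 were tested, 18 were higher and 1 was lower, with a median log2 change of 4.83. Of the 18, 11 were under 1 CPM on average in the differentiating gate, so they passed the filter on low counts through the stem gate, which leaves little room for the other direction, and their fitted changes and the median depend on the fit's prior count. Upp1, a uridine phosphorylase, was higher by 6.83, the proteoglycan Sdc4 by 6.70, the zinc finger factor Glis3 by 6.59 and Tcl1 by 6.59. Of the 7 at 1 CPM or more in the differentiating gate, with examples chosen after their values were seen, Foxo1, a forkhead factor, was at 142 ± 33.7 against 37.2 ± 5.21 CPM (SD, n = 5) and Id4 at 57.9 ± 18.0 against 13.3 ± 6.11. Taf4b, a subunit of the general transcription machinery, fell by 0.75. Nanos2, Cdh1 and Spry4 were too low to be tested.

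Differentiation genes split. Of 11 tested, 3 were higher, 5 were lower and 3 did not pass, with a median of -0.45. Ccnd2, the D-type cyclin of spermatogonia, was higher by 4.57, Rhox10 by 3.48 and the DNA methyltransferase Dnmt3a by 0.85. Prss50 fell by 3.54, Rhox13 by 2.70, Esx1 by 1.98 and Elavl2 by 1.20. Ccnd2 and Rhox10, listed with differentiation, were thus higher in the stem gate than in a gate that also held early spermatocyte-like barcodes.

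Of 17 genes of the retinoid pathway, 9 were tested, 1 was higher, 4 were lower and 4 did not pass, with a median of -0.22. The receptor Rxra was higher by 1.52, while the dehydrogenases Rdh10 and Aldh1a2 fell by 1.22 and 0.80, and Crabp1 by 0.68. The Crabp1 call was lost in the depth window (-0.47, edgeR adjusted p = 0.0922) and with no replicate block (-0.59, edgeR adjusted p = 0.114). For Aldh1a2 it was lost in the window (-0.53, edgeR adjusted p = 0.18), without HFD 1 (-0.60, edgeR adjusted p = 0.118) and with DESeq2. For Rdh10 it was lost with DESeq2 (adjusted p = 0.13). With edgeR the Rdh10 call was also lost without HFD 1 (adjusted p = 0.152), without HFD 2 (0.160) and without LFD 3 (0.0579). Among 11 niche ligands and receptors only Fgfr1 was abundant enough to be tested, and it was higher by 1.83.

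Early meiotic genes were lower in the stem gate, 17 of 19 tested, with none higher and a median of -1.36. The differentiating gate was set in part by Stra8, which acts at the start of meiosis. The gates themselves thus lean in this direction, and the count is a description. Gm4969 fell by 4.68, the histone methyltransferase Prdm9 by 4.01, the recombinase Dmc1 by 2.28 and Meioc by 2.28, and Spo11 and Meiob did not pass. In the stem gate Gm4969 was at 0 CPM in HFD 1, LFD 1 and LFD 3, and Prdm9 at 0 to 10.5 CPM. Their fitted changes therefore depend on the fit's prior count. Of 16 cell cycle genes, 1 was higher, 7 were lower and 8 did not pass, with a median of -0.13. Cyclin D3 (Ccnd3) was higher by 1.49, and Top2a fell by 1.47, Ccne1 by 1.19, Mki67 by 1.13 and Mcm5 by 0.81. The Ccne1 call was lost with DESeq2 (adjusted p = 0.0554) and in the depth window (edgeR adjusted p = 0.0759).

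Outside the lists, the 5 genes with the smallest p that were higher were Tubb5, a beta-tubulin (3.40), Dstn, an actin-severing protein (3.10), Trim71, a known target of let-7 microRNAs (4.39), Rest, a transcriptional repressor of neuronal genes (2.47), and Nefm, a neurofilament subunit (7.23). Nefm was at 0.643 CPM on average in the differentiating gate, so it passed the filter on low counts through the stem gate. Its fitted change depends on the fit's prior count. The 5 genes with the smallest p that were lower were the testis histone Hist1h2aa (-3.67), the linker histone H1fx (-2.44), Ly6k (-2.53), Cited1 (-3.35) and H2-K1, a class I histocompatibility gene (-2.96).

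The gate contrast differed between the labels for 2 of 9851 genes (0.0203%), Hormad1 and Sycp3, both of the meiotic chromosome axis, and 428 genes (4.34%) had an unadjusted p under 0.05. None of the 5 members outside the gates was among the 2, each at an edgeR adjusted p of 1.

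Finally, the members were compared between diets. In the class none of 12390 genes passed an adjusted p under 0.05 with edgeR (0%), 284 (2.29%) had an unadjusted p under 0.05, and DESeq2 called 1 gene (0.00807%), which was no member (Gm47283, log2 change -1.67, adjusted p = 0.0404). The members' log2 changes had a median of -0.50 with 9 of 10 lower in the libraries labelled HFD, beside a median of -0.03 and 53.7% lower over all genes tested. Within replicate 1, 7 of the 10 were higher, and in the other 4 libraries 9 were lower. Summed undifferentiated spermatogonia markers in the class stood at 330, 127 and 115 CPM in HFD 1 to 3 and 231, 213 and 316 in LFD 1 to 3, and their part in these differences was not tested.

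Kit was at 78.0, 74.6 and 65.7 CPM in the class of the libraries labelled HFD and 107, 95.6 and 103 in those labelled LFD. It was the 1 member of 10 whose groups did not overlap, as was true of 7.16% of all genes. On the log2 scale Kit differed by -0.50 ± 0.16 (SE, edgeR adjusted p = 0.94), with -0.45 within replicate 1 and -0.50 in the other 4 libraries. Over whole testes Kit was at 5.35, 5.35 and 4.02 CPM against 6.86, 6.79 and 7.14, lower by the same measure at -0.43 ± 0.18 (SE, adjusted p = 0.986, edgeR). Kit thus kept its direction within replicate 1 and outside it, and did not pass the adjustment over all genes.

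For Sohlh1, Uchl1 and Lin28a, HFD 1 lay apart from the other libraries labelled HFD. Sohlh1 was at 103, 29.8 and 44.7 CPM against 84.4, 61.8 and 111, with a log2 change of -0.50 ± 0.38 (SE), 0.28 within replicate 1 and -1.16 in the other 4. Uchl1 was at 704, 274 and 282 against 681, 470 and 629, with -0.50 ± 0.34 (SE), 0.05 and -0.97. Lin28a was at 20.6, 9.24 and 7.88 against 19.5, 15.8 and 25, with -0.60 ± 0.36 (SE), 0.08 and -1.13. For each of these 3 genes HFD 1 lay among or above the libraries labelled LFD while HFD 2 and HFD 3 lay below all of them. The same was true of Zbtb16, Nanos3, Sall4 and Dmrt1, so the pattern was not particular to these 3 genes. Without HFD 1, edgeR called 711 of 12558 genes (5.66%), 346 higher and 365 lower, among them Sohlh1 (-1.18, adjusted p = 0.0288), Uchl1 (-1.08, adjusted p = 0.0186) and Lin28a (-1.17, adjusted p = 0.0429). That set keeps LFD 1 as its only replicate 1 library, so the label and the replicate 1 difference are partly confounded in these calls.

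Sall4 was at 49.95, 26.0 and 25 CPM against 46.0, 36.1 and 76.4, a log2 change of -0.60 (0.12 within replicate 1 and -1.02 in the other 4). Gfra1 was at 5.10, 8.56 and 0.876 against 5.98, 11.7 and 10.8, a log2 change of -0.90 ± 0.52 (SE), with -0.20 and -1.53. Zbtb16 was at 48.4, 29.4 and 19.3 against 38.7, 32.9 and 45.3, a log2 change of -0.23, with 0.32 and -0.67. These groups all overlapped. Stra8 was at 364, 373 and 553 CPM against 403, 334 and 415, the 1 member with a positive log2 change, of 0.14, which was -0.15 within replicate 1 and 0.29 in the other 4. Nanos3 stood at -0.01, the balance of 0.90 within replicate 1 and -0.95 in the other 4. Dmrt1 was at -0.14, with 0.24 and -0.34.

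Over whole testes none of 20727 genes passed with edgeR (0%) or DESeq2, and 471 (2.27%) had an unadjusted p under 0.05 with edgeR. The members' median was -0.38, with 9 of 10 lower, beside 0.02 and 45.9% lower over all genes. Within replicate 1, 6 of the 10 were higher, and in the other 4 libraries all 10 were lower. Kit and Lin28a were the members whose groups did not overlap, 2 of 10, as were 6.68% of all genes, and Lin28a was at 1.04, 0.642 and 0.593 CPM against 1.10, 1.11 and 1.30 (-0.54, with -0.04 within replicate 1 and -0.45 in the other 4). Kit was at -0.31 and -0.50 in this split, and the other 8 members ran from -0.13 to 0.24 within replicate 1 and from -0.95 to -0.03 in the other 4.

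**Figure D5:**
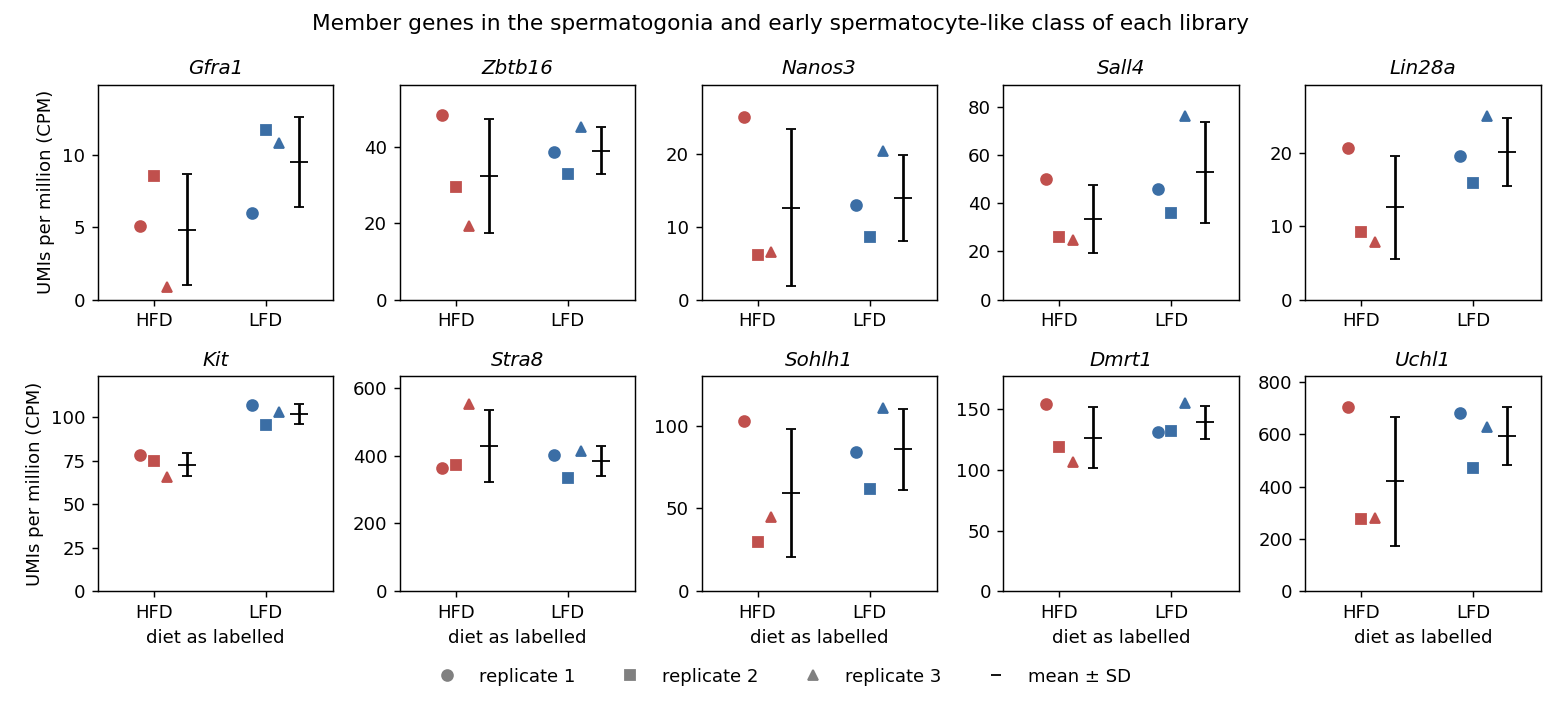
Level of each of the 10 genes in the spermatogonia and early spermatocyte-like class (vertical axis, CPM) in each library by diet label, with a symbol for each replicate number and the mean ± SD of 3 libraries. Kit is the 1 gene whose labels do not overlap. In Sohlh1, Uchl1, Lin28a, Zbtb16, Nanos3, Sall4 and Dmrt1, HFD 2 and HFD 3 lie below all libraries labelled LFD. HFD 1 lies among or above those libraries in these genes.

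Genes with the most similar pattern were named from Pearson correlations of log2(CPM + 1) over 81 sums of a class or cluster and a library, which share libraries and depth. Sall4 was closest to Prr23a3 (r = 0.970) and Fthl17e (0.968), and Lin28a to Sox11 (0.936) and Prr23a3 (0.932). Stra8 was closest to Map7d2 (0.952) and Tex11 (0.916), Dmrt1 to Jade3 (0.921) and Kif4 (0.896), Sohlh1 to Recql4 (0.901) and Ung (0.872), and Uchl1 to Cited1 (0.881) and Polr3g (0.880). Zbtb16 was closest to Swap70 (0.887) and Smo (0.886), and Kit to Siah1b (0.832) and Nexmif (0.825). Nanos3, with Susd4 (0.760) and Rspo4 (0.757), and Gfra1, with Pla2g1b (0.641) and D630045J12Rik (0.636), had the weakest matches of the 10.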

How the data were processed

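Single-cell libraries of 6 testes samples, 3 per diet label, were analysed. The authors made UMI counts per gene and barcode with Cell Ranger 6.0.1 on mm10, per the labels, and deposited them as filtered matrices of raw counts. The library kit version differs between the labels and the study's methods. Barcodes with 200 to 40000 genes were kept, which removed 0.

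Clusters came from scanpy 1.11.5 (2000 variable genes without the 10 members, 30 components, 20 neighbours, Leiden resolution 0.3). Harmony was not used here. Doublets were scored with Scrublet, marked at the rate loading would give (3356 barcodes, 6.86%), and kept in the main results. The class was clustered again at resolution 0.8. Counts were summed per library and tested with edgeR 4.0.16 (TMM, filterByExpr, quasi-likelihood, two-sided, Benjamini-Hochberg); DESeq2 1.42.0 was an alternative. Tests were tested on simulated data. Shares were compared with exact permutation tests. Levels were given only for libraries with at least 20 barcodes in a sub-cluster. Poisson intervals (95%) cover counting error only.

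Groups follow the labels. The study's methods give 3 mice per diet. The members and gene lists were chosen with earlier results of these data known, and the naming rules and sub-cluster resolution were set after the data were seen. Named were the members, up to 4 called genes per list and direction in the gate contrast, and the 5 with the smallest p outside the lists; 1 gene that the rule names is not reported here. Alternatives were other size factors, no filter on low counts, DESeq2, leaving out each library, the replicate number as a block, no doublets, resolution 0.6, members kept in clustering, 2 UMIs per gate and thinning to 2000 UMIs. Thinning to 5000 UMIs, the window of 6000 to 16000 UMIs (with at least 5 barcodes per gate), gates of at least 5 barcodes and replicate 1 as a term were added after the data were seen.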

Additional observations from a re-analysis of the deposited data

Results flagged for a closer look

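The gate contrast differed between the diet labels, by the edgeR interaction test with Benjamini-Hochberg adjustment, for Hormad1 and Sycp3, which encode proteins of the meiotic chromosome axis. Hormad1 was lower in the stem gate than in the differentiating gate by a log2 ratio of -0.79 and -0.47 in HFD 1 and 2, and of -1.95, -2.39 and -3.20 in LFD 1 to 3, a difference of 1.75 ± 0.32 (SE, adjusted p = 0.000721). Sycp3 stood at -1.06 and -0.44 against -1.78, -1.87 and -1.92, a difference of 1.08 ± 0.23 (SE, adjusted p = 0.0117). The ratios of the labels did not overlap for either gene, and HFD 3 did not enter. Early spermatocyte markers as a whole also stood apart in the stem gate of HFD 2, where the preleptotene to zygotene markers summed to 2824 CPM against 888 to 1426 in the other 4 libraries and the early meiotic genes to 4728 against 1794 to 2455, and their part in the difference was not tested. Stem gates held 13 to 37 barcodes per library. Without HFD 2 the adjusted p became 0.135 and 1, without LFD 2 0.0502 and 0.118, and without LFD 3 0.103 and 0.144, for Hormad1 and Sycp3 in turn.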

How the results depend on the processing

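In the gate contrast 611 values of named genes under the alternatives kept direction and call and 13 lost the call. Apart from the members, these genes were named for being called, with a large change or small p, in the same barcodes. That they kept the call was thus largely given in advance. The total of 4134 called genes ranged from 3007 to 3959 when leaving out 1 library and was 2766 with no replicate block. The diet comparisons rested on single libraries. Over whole testes the count of calls, 0, ranged from 0 to 2 when leaving out 1 library (Gas6 and Tubb5 without HFD 1), and in the class from 0 to 711, with 711 without HFD 1, 4 with no filter on low counts (Gm26737, Hist1h2ap, Gm21887 and Gm47283) and 1 with DESeq2 (Gm47283); these genes were named after their values were seen. Without HFD 1 the only replicate 1 library left is LFD 1, so label and replicate 1 are partly confounded there. The interaction gave 0 to 8. Pairs whose co-detection interval lay above 1 were 37, and 20 after thinning to 2000 UMIs.

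In the class, deviations of same-numbered libraries from the mean of their label correlated weakly, at 0.102, 0.195 and -0.0791. These correlations cannot show that replicate 1 does not pair. Over whole testes HFD 1 and LFD 1 were the most alike of all pairs. Their chi-square per degree of freedom was 21.4, against 50.2 to 217 for the other pairs. With the replicate block 31 genes were called over whole testes, and the stem gate share difference of -1.91 had an exact sign-flip p of 0.75, where 0.25 is the smallest possible. Replicate 1 as a term left the count at 0 in both comparisons.

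Signs of some diet differences turned. Over whole testes the log2 change of Gfra1 was 0.0019 with no filter and -0.13 to 0.0821 when leaving out 1 library, and that of Stra8 was -0.016 with RLE size factors, -0.017 with DESeq2, -0.0086 with the replicate block and -0.13 to 0.11 when leaving out 1. In the class Nanos3 was at 0.0024 with RLE size factors, 0.027 with no filter and 0.019 without doublets, and -1.04 to 0.33 when leaving out 1, Zbtb16 at -0.63 to 0.0297, and Stra8 at -0.058 to 0.28. The stem gate share difference ran from -4.33 to 0.221, with 0.221 without HFD 3, and the class share difference from -0.605 to 0.918, with 0.0155 when members were kept in clustering. The causes were not tested. Depth limits Lin28a, Sall4, Gfra1 and Nanos3 most, with 405, 774, 785 and 790 UMIs in all.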
